A study of Mus musculus with 15 samples.

Results

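The semaphorins, plexins and neuropilins are described here in laser-captured material enriched for mouse Purkinje cells (PCs), over the first 3 postnatal weeks. The family was taken as every protein-coding gene whose symbol in GENCODE M21, a mouse gene annotation, begins with Sema or Plxn or is *Nrp1* or *Nrp2*. It holds 31 of the 38561 gene identifiers in the count data, 20 semaphorins (ligands) and 11 receptors (9 plexins and 2 neuropilins).

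PCs were laser captured from the mouse cerebellum on the day of birth (P0) and at P4, P8, P14 and P21 (postnatal day). The mice were labelled C56/BL6, which the study's methods write as C57/BL6. All were male by those methods, with no genetic alteration or treatment. Each age had 3 biological replicates, which makes 15 samples. Somata were cut singly from P4 on, whereas P0 cells were cut as clusters from more sections, so that age and mode of capture cannot be told apart for P0. RNA was amplified before sequencing, and the counts on genes ranged from 3409371 to 7814951 per sample (median 5345170). The 6 PC markers examined (*Calb1*, *Itpr1*, *Pcp2*, *Pcp4*, *Car8* and *Ppp1r17*) were present at every age, and their summed level went from 5340 ± 737 CPM (counts brought to one library size for all samples, mean ± SD, n = 3) at P0 to 42941 ± 5287 at P21.

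Semaphorins are secreted or membrane-bound proteins that steer axons, dendrites and migrating cells, in most cases by repelling them. Plexins are their main receptors and act on small GTPases and the cytoskeleton, and neuropilins are co-receptors that most secreted semaphorins of class 3 need in order to reach a plexin of the A class. In the cerebellum the pathway is known for granule cell migration and for the shaping of climbing fiber synapses on PCs, where *Sema3a* and *Sema7a* act as signals sent back from the PC.

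Levels are given as RPKM, in which the counts of a gene are divided by its summed exon length in kilobases and scaled to the sample's total counts on genes. This lets genes of different length be set side by side only roughly. Coverage along the transcripts was not examined, so that the order of genes, the sums and the shares are approximate. Of the 31 genes, 18 had at least 1 count in all 15 samples (11 ligands and 7 receptors), and 7 reached a mean of 10 RPKM at some time point (5 ligands and 2 receptors). The 4 genes that stayed below 1 RPKM at every age were all class 3 ligands (*Sema3b*, *Sema3c*, *Sema3e* and *Sema3g*). Over the 15 samples the leading ligands were *Sema6a* (mean 17.4 RPKM), *Sema7a* (13.7 RPKM) and *Sema4g* (12.2 RPKM), and the leading receptors *Plxna1* (7.71 RPKM), *Plxnb2* (5.33 RPKM) and *Plxnb1* (5.17 RPKM). The mean level was highest at P0 in 8 ligands, at P8 in 5, at P14 in 1 and at P21 in 6. Among the receptors 5 were highest at P0, 2 at P4, 3 at P8 and 1 at P21.

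**Figure D1:**
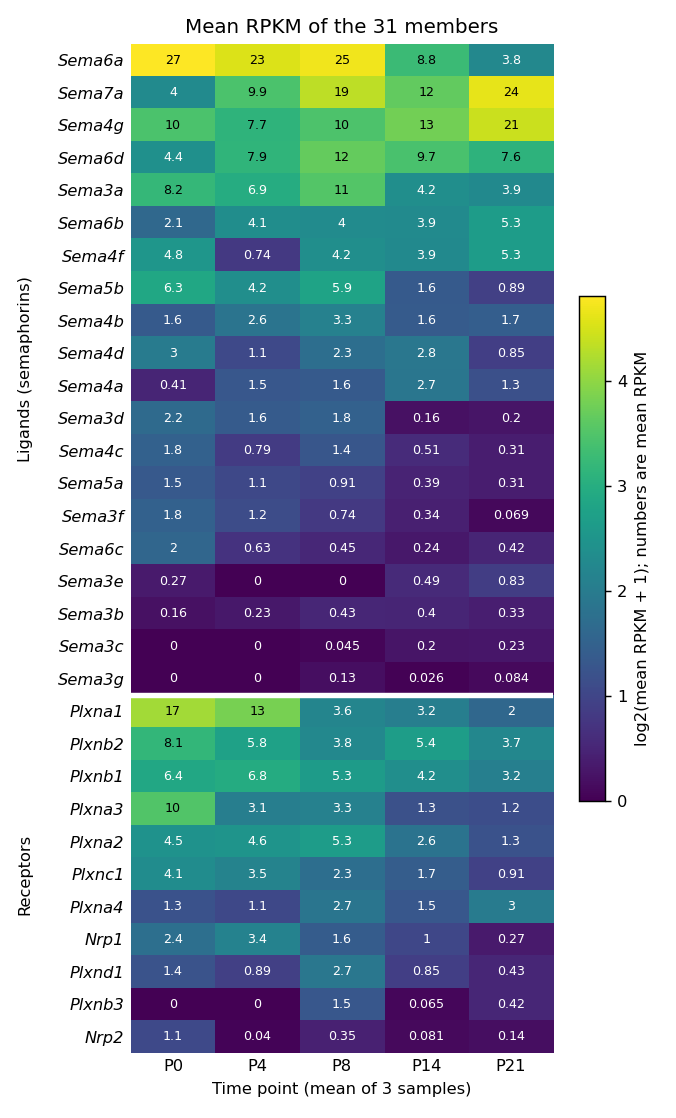
Mean RPKM of the 31 genes at each time point (columns, 3 samples each), ligands in the upper block and receptors in the lower one, ordered by mean level over all samples, with colour on the log2(mean RPKM + 1) scale. *Sema6a* leads the ligands at P0 with 27.1 RPKM and *Sema7a* at P21 with 23.8 RPKM, while *Plxna1* leads the receptors at P0 with 16.7 RPKM.

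The summed level of the 11 receptors went from 56.3 ± 14.8 RPKM (mean ± SD, n = 3) at P0 through 42.2 ± 8.77 at P4, then 32.4 ± 4.46 at P8 and 21.8 ± 6.42 in the P14 samples, to 16.6 ± 3.80 at P21. The highest of the 3 P21 sums, 20.4 RPKM, lay below the lowest P0 sum of 39.4 RPKM. The summed level of the 20 ligands was 81.6 ± 25.3 RPKM at P0, 74.7 ± 29.4 at P4 and 104 ± 17.0 at P8, then 66.3 ± 5.85 at P14 and 77.8 ± 11.8 at P21, and its ranges overlapped between P0 and P21. The sums were not tested. Within the ligand sum, *Sema6a* made up 33.2% ± 3.80 at P0 and 5.19% ± 3.60 at P21, *Sema7a* 4.81% ± 2.71 at P0 and 29.8% ± 8.33 at P21, and *Sema4g* 12.1% ± 2.63 and 26.5% ± 2.74. These are levels in captured material, in which fewer cells of a type and less RNA per cell cannot be told apart.

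Whether a gene rose or fell with age was tested with the quasi-likelihood F test of edgeR over all 14293 genes that passed a filter on low counts. Postnatal day was fitted as a number, and a slope is the change in log2 abundance per day. A called slope does not show that the change was steady. A gene is called at an adjusted p (Benjamini-Hochberg over all 14293 genes) below 0.05. Of the 31 genes, 29 could be tested (18 ligands and 11 receptors), the other two being *Sema3c* and *Sema3g*. Among the tested ones 6 fell, against 14.1% of all genes tested, and 2 rose, against 12.1%. The 6 that fell were the ligands *Sema6a* and *Sema5b* and the receptors *Plxna1*, *Plxna2*, *Plxna3* and *Nrp1*, whereas the 2 that rose were the ligands *Sema4g* and *Sema7a*. Of the 11 receptors 4 fell, and of the 18 ligands 2 fell, and whether ligands and receptors differ in this was not tested. By edgeR 0 receptors rose, and 0 did so at an unadjusted p below 0.05 or by DESeq2, while limma-voom called 1 (*Plxna4*). Slopes lay below 0 for 9 of the 11 receptors (median -0.075) and for 10 of the 18 ligands (median -0.015), beside a median of -0.0077 over all genes tested.

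**Figure D2:**
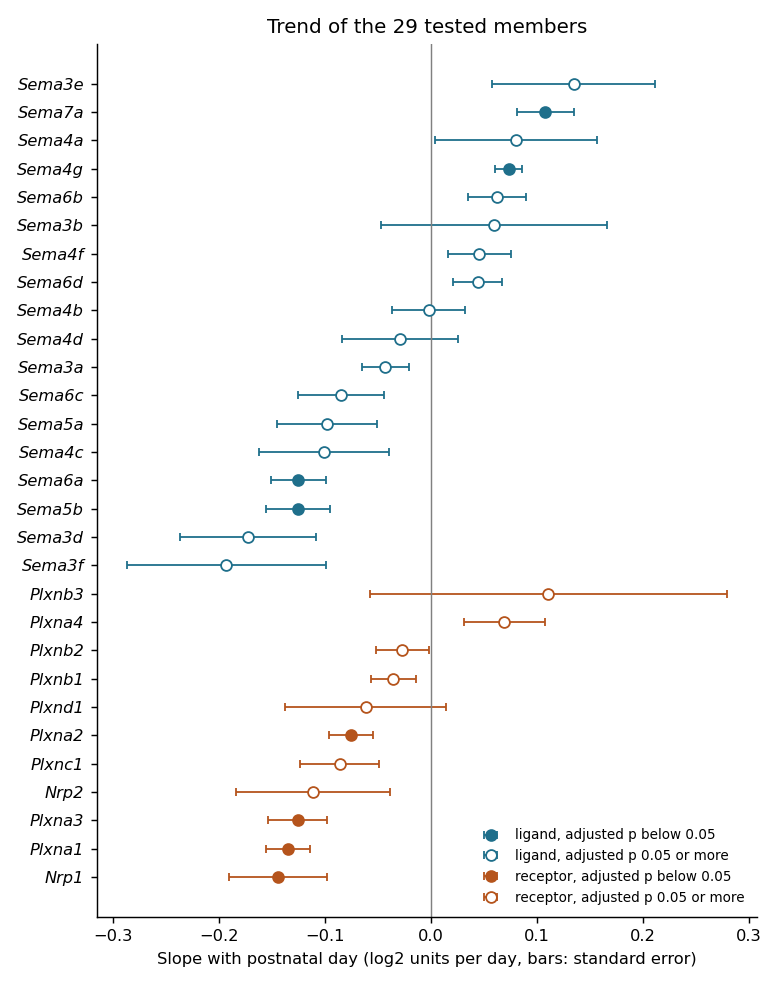
Slope with postnatal day in log2 units per day for the 29 tested genes, with bars of 1 standard error, ligands in blue and receptors in orange, filled where the adjusted p was below 0.05. Filled points lie on both sides of 0 for the ligands and below 0 for the receptors.

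A second test, which took the time points as separate levels, called genes that changed in any pattern. It called 9 of the 29 genes, against 19.3% of all genes tested, namely *Sema6a*, *Sema5b*, *Sema4g*, *Sema7a*, *Sema3e*, *Sema4f*, *Plxna1*, *Plxna2* and *Plxna3*. In all, 10 genes were called by one test or the other and 19 by neither. The same fit placed changes in time. From P0 to P8, 1 of the 29 genes fell (*Plxna1*, against 1.74% of all genes) and 2 rose (*Sema7a* and *Sema6d*, against 5.61%). From P8 to P21, 3 fell (*Sema6a*, *Sema5b* and *Plxna2*, against 4.61%) and 2 rose (*Sema4g* and *Sema3e*, against 3.64%). The median difference of the 29 genes was -0.098 on the log2 scale from P0 to P8, beside 0 over all genes, and -1.10 from P8 to P21, beside -0.082 over all genes.

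For 6 of the 8 genes with a called slope, the RefSeq promoter table for build GRCm38.p6 held an entry, and for 3 of them the 250 bases before the RefSeq transcription start held no annotated exon. These 3 are printed 5′ to 3′ on the plus strand, on which all 3 genes lie, because they are the start regions of a ligand that rose and of the plexin and the neuropilin that fell. Capitals mark matches, on either strand, to a GC box (GGGCGG) or a nuclear receptor half-site (AGGTCA), and no matches overlapped. The windows are chr9:57939862-57940111 for *Sema7a*, chrX:74328816-74329065 for *Plxna3* and chr8:128358823-128359072 for *Nrp1*, which lies inside the longer GENCODE M21 gene.
Sema7a: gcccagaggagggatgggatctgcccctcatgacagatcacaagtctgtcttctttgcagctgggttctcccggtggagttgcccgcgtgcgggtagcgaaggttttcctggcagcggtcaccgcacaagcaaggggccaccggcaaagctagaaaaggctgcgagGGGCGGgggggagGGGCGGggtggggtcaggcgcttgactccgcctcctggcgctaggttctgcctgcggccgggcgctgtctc
Plxna3: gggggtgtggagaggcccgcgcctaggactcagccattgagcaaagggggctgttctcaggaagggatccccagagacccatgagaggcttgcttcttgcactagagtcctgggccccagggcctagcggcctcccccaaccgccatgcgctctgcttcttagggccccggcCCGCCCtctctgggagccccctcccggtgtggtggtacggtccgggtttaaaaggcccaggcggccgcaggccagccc
Nrp1: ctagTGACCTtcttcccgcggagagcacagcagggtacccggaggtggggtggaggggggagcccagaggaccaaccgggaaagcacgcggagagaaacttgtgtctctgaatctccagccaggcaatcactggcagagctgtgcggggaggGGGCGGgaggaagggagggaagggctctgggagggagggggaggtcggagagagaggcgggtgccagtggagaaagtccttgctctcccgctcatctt
The *Sema7a* window holds a GC box at bases -84 to -79 and another at -71 to -66 from the start, and the *Plxna3* and *Nrp1* windows hold 1 each, at -78 to -73 and at -98 to -93. The half-site stands in the *Nrp1* window at -246 to -241. The table matched 26 of the 31 genes with 37 promoters, of which 27 held a GC box against 32.7% of all 32851 promoters, and 7 held the half-site against 14.02%. The TATA box (TATAAA) and the cAMP response element core (TGACGTCA) were in 0 of the 37, against 12.4% and 1.55% of all promoters. Rising and falling genes both carried the GC box, whereas the window of *Sema5b*, which fell, held none. The 37 promoters belong to 26 genes, of which 21 held a GC box, and include windows that lie in annotated exons. These matches are letters in a window and not sites of binding.

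Among the ligands, *Sema6a* went down most in level. *Sema6a* (ENSMUSG00000019647) encodes a transmembrane semaphorin that binds plexins A2 and A4 and guides granule cell migration. Its level was 18.3, 35.5 and 27.5 RPKM in the P0 samples, 40.1, 11.2 and 16.3 in the P4 samples, 26.8, 12.9 and 35.2 in the P8 samples, 11.6, 7.28 and 7.40 in the P14 samples and 1.504, 3.81 and 5.95 in the P21 samples. All 3 P21 samples lay below every sample of P0, P4 and P8, whereas the P0, P4 and P8 samples overlapped widely. The mean went from 27.1 ± 8.63 RPKM at P0 to 24.98 ± 11.3 in the P8 samples, 8.76 ± 2.46 at P14 and 3.76 ± 2.22 at P21. The slope was -0.13 ± 0.026 (log2 per day ± SE, adjusted p = 0.00134), and the change was placed after P8, with a fall of 2.47 ± 0.52 on the log2 scale from P8 to P21 (adjusted p = 0.00663) against -0.011 ± 0.49 from P0 to P8 (adjusted p = 0.998). The slope stayed below the threshold with any 1 sample left out, but not on a log2(day + 1) scale (adjusted p = 0.0522).

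*Sema5b* (ENSMUSG00000052133, chr16:35541145-35664732) encodes a transmembrane semaphorin with thrombospondin repeats, and it followed a like course at a lower level. Its values were 3.01, 7.71 and 8.11 RPKM in the P0 samples, 5.72, 4.92 and 2.05 in the P4 samples, 6.11, 5.50 and 6.08 in the P8 samples, 1.72, 0.773 and 2.18 in the P14 samples and 0.994, 1.32 and 0.343 in the P21 samples. The 6 samples of P14 and P21 all lay below the 3 samples of P8, and only 1 earlier sample, at P4, came down to the upper P14 value. The slope was -0.13 ± 0.030 (adjusted p = 0.00433), and *Sema5b* fell by 2.48 ± 0.63 on the log2 scale from P8 to P21 (adjusted p = 0.0210). The call from P8 to P21 was lost without P8 replicate 1 (adjusted p = 0.0560), P8 replicate 3 (0.0535), P21 replicate 1 (0.0640) or P21 replicate 3 (0.0763), and that of any pattern (adjusted p = 0.0249) without P21 replicate 1 (0.0615) or P21 replicate 3 (0.0534). On a log2(day + 1) scale the slope had an adjusted p of 0.0625. The other member of its class, *Sema5a*, had time point means from 1.55 RPKM at P0 down to 0.311 RPKM at P21 and a slope of -0.098 ± 0.047 that missed the threshold (adjusted p = 0.140), but passed it without P21 replicate 3 (0.0217).

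The ligands that rose were *Sema7a* and *Sema4g*, which by P21 were the most abundant semaphorins. *Sema7a* (ENSMUSG00000038264, chr9:57940112-57962865) encodes a semaphorin held to the membrane by a lipid anchor, which signals through plexin C1 and beta 1 integrins. Its levels were 1.49, 4.66 and 5.71 RPKM in the P0 samples, 13.9, 8.54 and 7.21 in the P4 samples, 23.0, 16.4 and 17.9 in the P8 samples, 16.3, 6.25 and 12.3 in the P14 samples and 35.7, 19.3 and 16.4 in the P21 samples. Every sample from P4 on lay above all 3 P0 samples, and the samples of P8 and P21 overlapped. All 3 P14 samples lay below all samples of P8 and P21. The slope was 0.11 ± 0.027 (adjusted p = 0.00547), with a rise of 2.38 ± 0.51 on the log2 scale from P0 to P8 (adjusted p = 0.00878) and a difference of 0.57 ± 0.48 from P8 to P21 (adjusted p = 0.575). Without the P0 time point, whose cells were cut as clusters, the slope was 0.068 (adjusted p = 0.0625) and the test of any pattern had an adjusted p of 0.0636.

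*Sema4g* (ENSMUSG00000025207, chr19:44989101-45003397), a transmembrane semaphorin, rose later. It measured 8.50, 14.7 and 6.71 RPKM in the P0 samples, 10.6, 5.98 and 6.58 in the P4 samples, 10.3, 10.5 and 9.22 in the P8 samples, 10.9, 13.0 and 14.4 in the P14 samples and 23.2, 22.3 and 16.3 in the P21 samples. All 3 P21 samples stood above all 12 others, and the P14 samples lay above those of P8. The slope was 0.073 ± 0.013 (adjusted p = 0.00027) and held in every setting tried. The difference was 0.11 ± 0.29 on the log2 scale from P0 to P8 (adjusted p = 0.895) and 1.29 ± 0.30 from P8 to P21 (adjusted p = 0.0115), the latter lost without P8 replicate 3 (adjusted p = 0.0519).

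**Figure D3:**
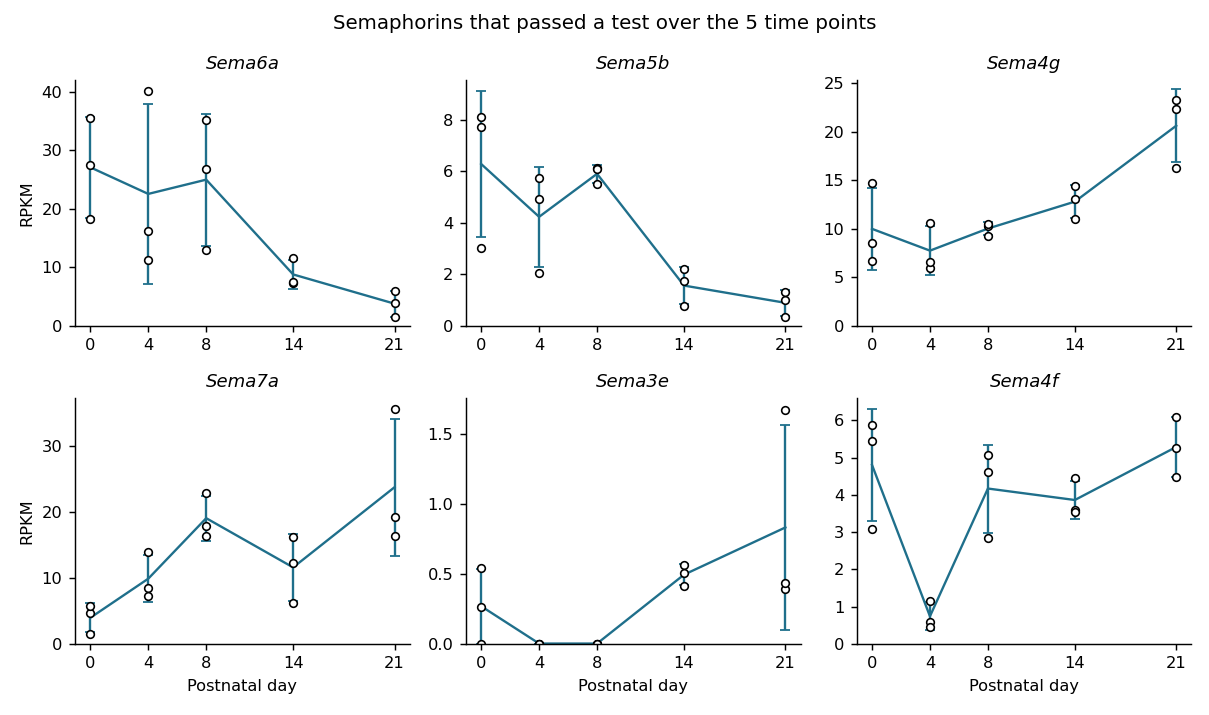
RPKM against postnatal day for the 6 ligands called by the trend test or the test of any pattern, with points for single samples and a line with bars for the mean ± SD of 3 samples. *Sema6a* and *Sema5b* drop between P8 and P14, *Sema4g* is highest in all 3 P21 samples, *Sema3e* is at 0 in all 6 samples of P4 and P8, and *Sema4f* is lowest at P4.

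A pair of ligands was called by the test of any pattern but not by the trend test. *Sema4f* (ENSMUSG00000000627, chr6:82911885-82939769), a transmembrane semaphorin, dipped at P4. It was at 5.89, 5.43 and 3.09 RPKM in the P0 samples, 0.596, 0.460 and 1.16 in the P4 samples, 4.61, 5.07 and 2.83 in the P8 samples, 3.60, 4.45 and 3.53 in the P14 samples and 5.27, 4.49 and 6.10 in the P21 samples. All 3 P4 samples lay below all 12 other samples, and among the other ages only P14 and P21 did not overlap, with P21 the higher. The test of any pattern gave an adjusted p of 0.00636 and held with any 1 sample left out. The slope was 0.046 ± 0.030 (adjusted p = 0.290) by edgeR. It passed the threshold by limma-voom (0.092, adjusted p = 0.0393) and without the P0 time point (0.13, adjusted p = 0.0305). *Sema3e* (ENSMUSG00000063531, chr5:14025276-14256689), a secreted ligand that binds plexin D1 without a neuropilin, was sparse. Its values were 0, 0.264 and 0.538 RPKM in the P0 samples, 0 in all 3 P4 samples, 0 in all 3 P8 samples, 0.563, 0.413 and 0.503 in the P14 samples and 1.67, 0.388 and 0.430 in the P21 samples. No count was found in any P4 or P8 sample, while all P14 and P21 samples had counts. A floor of 3 counts in each P8 library corresponds to a mean of 0.0641 RPKM, so that the mean level was at least 13.0-fold higher at P21 than at P8 and at least 7.69-fold higher at P14. Without P21 replicate 1, the highest sample, the first bound was 6.39-fold. The rise from P8 to P21 had an adjusted p of 0.0304, and the test of any pattern one of 0.0207. The former was lost without P8 replicate 1 (0.0855), 2 (0.0845) or 3 (0.0852) or P21 replicate 1 (0.0887) or 2 (0.0508), and the latter without P21 replicate 1 (0.0555). The slope of *Sema3e* was called by limma-voom (0.26, adjusted p = 0.00901) and without the P0 time point (0.55, adjusted p = 0.0037). DESeq2 called a fall from P0 to P8 (adjusted p = 0.0277) that edgeR did not (0.0814). The floor covers counting error only.

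*Sema6d*, a transmembrane ligand of plexin A1, was called as higher at P8 than at P0. Its level was 2.67, 6.10 and 4.34 RPKM in the P0 samples, 12.4, 3.04 and 8.25 in the P4 samples, 15.5, 9.37 and 10.3 in the P8 samples, 10.9, 10.2 and 8.11 in the P14 samples and 6.06, 9.07 and 7.76 in the P21 samples. The 3 P8 samples lay above the 3 P0 samples, and the P4 samples spanned both. From P0 to P8 it rose by 1.53 ± 0.41 on the log2 scale (adjusted p = 0.0314), and its slope over all ages was 0.044 ± 0.023 (adjusted p = 0.176), but 0.32 per unit of log2(day + 1) (adjusted p = 0.0217). The rise was lost without P0 replicate 1 (adjusted p = 0.129) or 3 (0.0887) or P8 replicate 1 (0.147), 2 (0.0584) or 3 (0.0695). By edgeR the test of any pattern did not call *Sema6d* (adjusted p = 0.0830). It did so by DESeq2 (0.0369) and without P4 replicate 1 (0.0398) or 2 (0.0223). Age and mode of capture cannot be told apart in the comparison with P0. In the same class, *Sema6b* had means from 2.10 RPKM at P0 to 5.34 at P21 (slope 0.062 ± 0.027, adjusted p = 0.0996, but 0.0234 without P4 replicate 1 and 0.0421 by limma-voom) and *Sema6c* from 2.004 at P0 to 0.241 at P14 (slope -0.084 ± 0.040, adjusted p = 0.137, but 0.0287 without P21 replicate 2 and 0.0481 on the log2(day + 1) scale).

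The secreted ligands of class 3, most of which act through neuropilins and plexins of the A class, gave 0 called slopes among the 5 tested by edgeR. Of all genes tested 14.1% fell and 12.1% rose, so that 0 of 5 is no trait of the class. At an unadjusted p below 0.05 there was 1, while DESeq2 called 1 (*Sema3d*) and limma-voom 2 (*Sema3d* and *Sema3e*). *Sema3a*, the best known repellent of the class, had the highest level of them, with means of 8.24 ± 6.15 RPKM at P0 and 6.88 ± 3.13 at P4, then 10.5 ± 1.999 at P8, and later 4.22 ± 0.997 at P14 and 3.88 ± 0.402 at P21. Its P14 and P21 samples (3.34 to 5.30 RPKM) all lay below the 3 P8 samples (8.36 to 12.3 RPKM). The slope was -0.043 ± 0.022 (adjusted p = 0.170, but 0.0476 without P0 replicate 1), and the difference from P8 to P21 was -1.19 ± 0.45 on the log2 scale (adjusted p = 0.131). *Sema3d* was between 1.61 and 2.17 RPKM on average from P0 to P8 and at 0.162 and 0.200 at P14 and P21, with a slope of -0.17 ± 0.064 (adjusted p = 0.0553) that passed the threshold without P0 replicate 1 (0.0476), P4 replicate 2 (0.0375) or P21 replicate 3 (0.0282). *Sema3f* had means from 1.81 RPKM at P0 to 0.0693 at P21 (slope -0.19 ± 0.094, adjusted p = 0.144), and *Sema3b* stayed between 0.158 and 0.429 RPKM. *Sema3c* and *Sema3g* had 58 and 18 counts over all samples and no count in any of the 6 samples of P0 and P4.

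The remaining transmembrane ligands of class 4 passed none of the tests made with edgeR. Of all genes tested 14.1% fell and 12.1% rose by the trend test, and 19.3% were called by the test of any pattern. *Sema4d*, a ligand of plexin B1 known from immune cells, myelin and bone, had means between 0.852 RPKM at P21 and 3.03 at P0 (slope -0.029 ± 0.055, adjusted p = 0.754). *Sema4b* lay between 1.58 and 3.33 RPKM, *Sema4a* between 0.406 and 2.72 RPKM and *Sema4c* between 0.307 and 1.81 RPKM, with adjusted p of 0.975, 0.491 and 0.251 for the slope. The 3 P0 samples of *Sema4a* (0 to 0.783 RPKM) lay below the 3 P14 samples (2.29 to 3.004 RPKM). The 3 P0 samples of *Sema4d* (2.16 to 3.69 RPKM) lay above the 3 P21 samples (0 to 1.34 RPKM). In *Sema4b* the 3 P8 samples (2.52 to 3.98 RPKM) lay above the 3 P14 samples (0.922 to 2.24 RPKM). These pairs of ages were picked after the values were seen, and the separations were not tested. *Sema4c* shares 7.27% of its exon bases with a gene on the opposite strand, and the libraries did not keep strand.

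Among the receptors, plexins of the A class gave 3 of the 4 called slopes, all of them falls, where 14.1% of all genes tested fell. *Plxna1* (ENSMUSG00000030084, chr6:89316314-89362620), a signaling receptor for secreted semaphorins with neuropilins and for *Sema6d*, was the most abundant receptor at P0. Its level was 19.5, 17.8 and 12.6 RPKM in the P0 samples, 7.52, 15.4 and 16.4 in the P4 samples, 4.19, 3.82 and 2.69 in the P8 samples, 3.13, 3.63 and 2.82 in the P14 samples and 0.972, 2.19 and 2.95 in the P21 samples. All samples of P8, P14 and P21 lay below all samples of P0 and P4. The mean was 16.7 ± 3.59 RPKM at P0, 13.1 ± 4.85 at P4 and 3.57 ± 0.786 at P8. The slope was -0.13 ± 0.021 (adjusted p = 8.1e-05) and held in every setting tried. The fall lay in the first week, with a drop of 2.12 ± 0.40 on the log2 scale from P0 to P8 (adjusted p = 0.00336) and a difference of -0.55 ± 0.39 from P8 to P21 (adjusted p = 0.476). The antisense gene *Gm26811* overlaps 10.7% of the exon bases of *Plxna1*, with 135 counts over all samples beside 5505 for *Plxna1*. Without strand, reads inside the shared bases fit both genes, and HTSeq tallies such reads as ambiguous, in neither count. RPKM was still divided by the whole exon length.

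*Plxna2* (ENSMUSG00000026640, chr1:194618218-194816869), a receptor of *Sema6a* in granule cells, fell only in the later interval by the tests made. It stood at 3.19, 5.53 and 4.81 RPKM in the P0 samples, 5.94, 5.19 and 2.78 in the P4 samples, 6.83, 4.85 and 4.19 in the P8 samples, 2.32, 2.99 and 2.37 in the P14 samples and 0.854, 0.975 and 2.08 in the P21 samples. The 9 samples up to P8 (2.78 to 6.83 RPKM) overlapped, and the 3 P21 samples lay below all of them. The slope was -0.075 ± 0.021 (adjusted p = 0.0102), the difference from P0 to P8 was 0.34 ± 0.38 on the log2 scale (adjusted p = 0.707) and the fall from P8 to P21 was -1.77 ± 0.39 (adjusted p = 0.00927). The fall from P8 to P21 was lost without P21 replicate 1 (0.0513) or 2 (0.0518), that of any pattern (0.0236) without P21 replicate 1 (0.0902) or 2 (0.0965), and the slope on a log2(day + 1) scale (0.190).

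*Plxna3* (ENSMUSG00000031398, chrX:74329066-74344689), a receptor that works with neuropilins, was highest at P0. Its values were 16.3, 9.70 and 5.10 RPKM in the P0 samples, 4.87, 1.98 and 2.57 in the P4 samples, 3.53, 1.89 and 4.63 in the P8 samples, 0.535, 2.29 and 1.07 in the P14 samples and 1.94, 1.19 and 0.507 in the P21 samples. The 3 P0 samples lay above all 12 later ones, and the P4 and P8 samples overlapped. The slope was -0.13 ± 0.028 (adjusted p = 0.00212), whereas neither interval passed the threshold alone (-1.53 ± 0.64 on the log2 scale from P0 to P8, adjusted p = 0.184, and -1.23 ± 0.64 from P8 to P21, adjusted p = 0.294). Without the P0 time point the slope was -0.080 (adjusted p = 0.134), and the call of any pattern (0.0138) was lost without that time point (0.356) or without P0 replicate 1 (0.0898). *Plxna4*, which *Sema6a* also binds, had means of 1.33 ± 1.34 RPKM at P0 and 2.996 ± 0.346 at P21 and a slope of 0.069 ± 0.038 (adjusted p = 0.203).

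**Figure D4:**
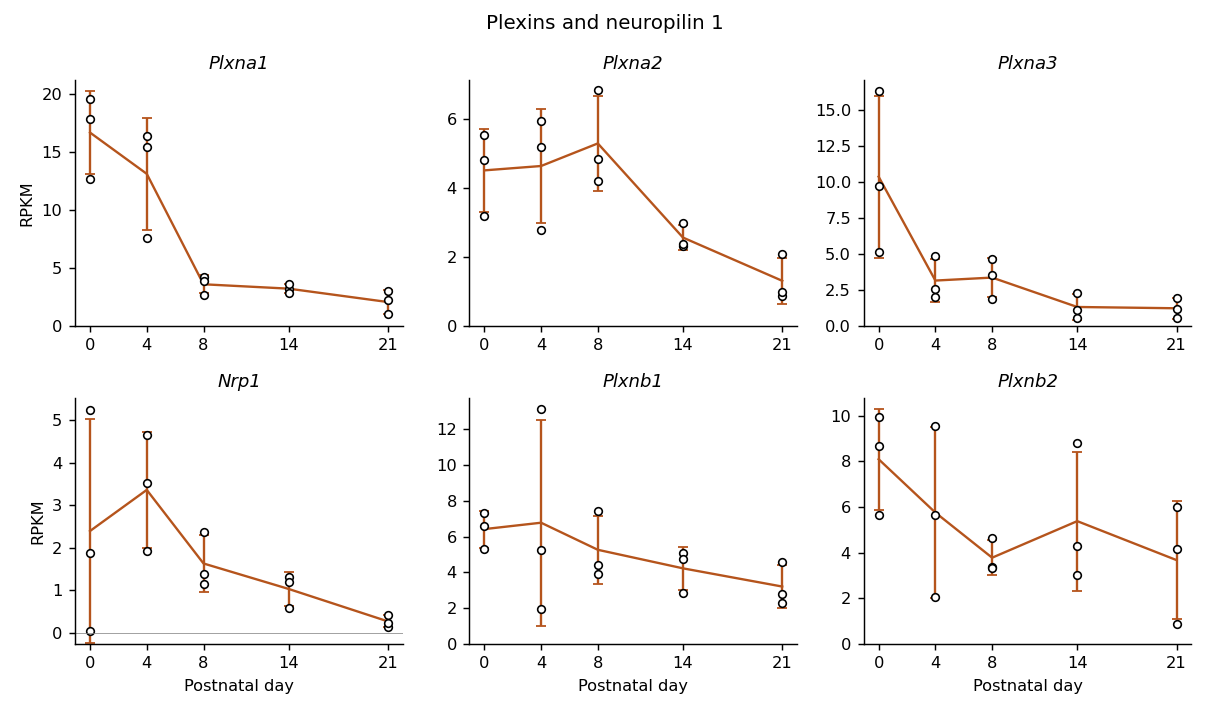
RPKM against postnatal day for the 4 receptors with a called slope (*Plxna1*, *Plxna2*, *Plxna3* and *Nrp1*) and for *Plxnb1* and *Plxnb2*, with points for single samples and a line with bars for the mean ± SD of 3 samples. *Plxna1* drops between P4 and P8 and *Plxna2* after P8, and the 3 P0 samples of *Nrp1* span 0.0464 to 5.25 RPKM.

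The neuropilins bind secreted semaphorins and vascular growth factors. *Nrp1* (ENSMUSG00000025810, chr8:128358604-128503363) was at 5.25, 1.89 and 0.0464 RPKM in the P0 samples, 4.65, 3.53 and 1.92 in the P4 samples, 2.39, 1.14 and 1.38 in the P8 samples, 0.586, 1.32 and 1.19 in the P14 samples and 0.150, 0.239 and 0.423 in the P21 samples. The 3 P0 samples, with 241, 83 and 2 counts, spanned all other samples, and all P21 samples lay below all samples of P4, P8 and P14. The slope was -0.14 ± 0.046 (adjusted p = 0.0264). It missed the threshold by limma-voom (slope -0.053, adjusted p = 0.622) and on a log2(day + 1) scale (0.183), and without P0 replicate 1 (0.0692) or P21 replicate 1 (0.0755), 2 (0.0728) or 3 (0.0555). Without P0 replicate 3 *Nrp1* was called as fallen from P8 to P21 (adjusted p = 0.0392) and by the test of any pattern (0.0131). The latter also called it without the P0 time point (0.0128). *Nrp2* had 297 counts in all, with a mean of 1.09 ± 0.665 RPKM at P0 and between 0.0397 and 0.352 later (slope -0.11 ± 0.073, adjusted p = 0.291).

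Plexins of the B class, receptors of class 4 ligands, gave 0 called slopes by edgeR, 0 at an unadjusted p below 0.05 and 0 by DESeq2 or limma-voom. The class holds only 3 genes, and by edgeR 14.1% of all genes tested fell and 12.1% rose. *Plxnb2* was at 8.68, 9.96 and 5.64 RPKM in the P0 samples, 5.65, 2.06 and 9.55 in the P4 samples, 3.35, 3.32 and 4.65 in the P8 samples, 3.04, 8.82 and 4.28 in the P14 samples and 6.003, 0.863 and 4.14 in the P21 samples. *Plxnb1* was at 6.61, 7.34 and 5.30 RPKM in the P0 samples, 13.1, 1.92 and 5.25 in the P4 samples, 7.43, 3.91 and 4.43 in the P8 samples, 5.10, 4.74 and 2.83 in the P14 samples and 2.26, 2.76 and 4.58 in the P21 samples. The P0 and P21 samples did not overlap for *Plxnb1* and did for *Plxnb2*, and the slopes were -0.035 ± 0.021 (adjusted p = 0.248) and -0.027 ± 0.025 (adjusted p = 0.480). *Plxnb3*, known from oligodendrocytes, had 204 counts in 6 samples, none at P0 or P4 and most in P8 replicate 3 at 3.80 RPKM. Its test of any pattern gave an adjusted p of 0.0835, and 0.0496 without P8 replicate 1. DESeq2 called a rise from P0 to P8 (adjusted p = 0.0398, by edgeR 0.117).

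Of the other receptors, *Plxnc1*, the plexin that binds *Sema7a*, had means of 4.06 ± 1.02 RPKM at P0, 3.47 ± 3.29 at P4 and 2.32 ± 1.47 at P8, then 1.68 ± 0.283 at P14 and 0.907 ± 0.624 at P21. All 3 P21 samples lay below the 3 P0 samples, and the slope of -0.086 ± 0.037 missed the threshold (adjusted p = 0.102) but passed it without P4 replicate 2 (0.00946), which stood at 0.0766 RPKM. *Plxnd1*, the receptor of *Sema3e*, had its highest mean, 2.75 ± 1.42 RPKM, at P8, when *Sema3e* had no count, and its lowest, 0.430 ± 0.695, at P21 (slope -0.061 ± 0.076, adjusted p = 0.609).

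The partners of the pathway were a list of 46 genes, 14 co-receptors or other binding proteins and 32 intracellular effectors, of which 43 could be tested. By the trend test 10 of the 43 fell, beside 14.1% of all genes tested, and 5 rose, beside 12.1%. The median slope was -0.013. Of the 11 tested co-receptors 2 fell, the adhesion molecules *Chl1* and *L1cam*, and 0 rose by edgeR, by DESeq2, by limma-voom or at an unadjusted p below 0.05. Of the 32 effectors 8 fell and 5 rose. The 3 steepest falls were those of *Dpysl3*, *Dpysl5* and *Chl1*, and the 3 steepest rises those of *Rhod*, *Mical2* and *Rnd1*.

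*Dpysl3* and *Dpysl5* encode collapsin response mediator proteins, cytosolic proteins that bind tubulin and relay semaphorin signals. *Dpysl3* was at 213, 192 and 205 RPKM in the P0 samples, 103, 136 and 128 in the P4 samples, 42.9, 47.4 and 47.2 in the P8 samples, 11.4, 8.81 and 6.63 in the P14 samples and 2.35, 0.0545 and 1.38 in the P21 samples. *Dpysl5* was at 35.2, 48.1 and 30.1 RPKM in the P0 samples, 19.3, 23.1 and 23.9 in the P4 samples, 14.8, 9.76 and 14.7 in the P8 samples, 4.62, 2.87 and 2.46 in the P14 samples and 2.39, 1.73 and 5.42 in the P21 samples. *Chl1*, a partner of *Nrp1* and of *Sema3a* signaling, was at 49.6, 47.1 and 48.5 RPKM in the P0 samples, 32.5, 28.9 and 32.5 in the P4 samples, 11.1, 15.6 and 14.4 in the P8 samples, 5.90, 12.1 and 13.2 in the P14 samples and 4.39, 3.56 and 7.66 in the P21 samples. In each of the 3 genes all P21 samples lay below all samples of P0, P4 and P8. Slopes were -0.34 ± 0.029, -0.17 ± 0.019 and -0.14 ± 0.014, with adjusted p of 1.23e-07, 4.1e-06 and 1.15e-06. All 5 genes of this protein family fell, a group picked out after the values were seen, with *Crmp1* going from 126 ± 15.01 to 23.3 ± 5.76 RPKM, *Dpysl2* from 741 ± 145 to 262 ± 45.6 and *Dpysl4* from 24.2 ± 7.58 to 7.76 ± 2.76 between P0 and P21. The slope of *Dpysl4* (-0.070 ± 0.021, adjusted p = 0.0202) was lost without P21 replicate 1 (0.0503) or P21 replicate 3 (0.0692) and on the log2(day + 1) scale (0.148).

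*Rhod*, a small GTPase that binds plexins, was at 0, 0 and 5.82 RPKM in the P0 samples, 0, 0 and 0.108 in the P4 samples, 2.72, 11.5 and 21.7 in the P8 samples, 33.6, 34.9 and 43.6 in the P14 samples and 50.8, 31.5 and 40.4 in the P21 samples. *Mical2*, a redox enzyme that disassembles actin and a relative of the plexin A effector *Mical1*, was at 0, 0 and 0.402 RPKM in the P0 samples, 0.0863, 0 and 0.134 in the P4 samples, 1.02, 1.12 and 0.455 in the P8 samples, 0.743, 1.74 and 1.04 in the P14 samples and 2.02, 1.69 and 2.63 in the P21 samples. *Rnd1*, a GTPase that binds the cytoplasmic part of plexins, was at 6.26, 0.601 and 0.688 RPKM in the P0 samples, 0.354, 2.54 and 1.82 in the P4 samples, 11.3, 6.99 and 15.1 in the P8 samples, 3.35, 17.2 and 24.1 in the P14 samples and 8.601, 5.22 and 22.3 in the P21 samples. All P14 and P21 samples of *Rhod* stood above all P0 to P8 samples, and the slopes were 0.29 ± 0.073 (adjusted p = 0.00675) for *Rhod*, 0.22 ± 0.060 (0.00931) for *Mical2* and 0.15 ± 0.050 (0.0300) for *Rnd1*. The slope of *Rnd1* was lost without P0 replicate 2 (0.0621) or 3 (0.0633), P4 replicate 3 (0.0516) or P21 replicate 3 (0.0831), and without the P0 time point (0.136). The other two that rose were *Ranbp9* (0.053 ± 0.014, adjusted p = 0.0103), lost without the P0 time point (0.0587), and *Cdk5* (0.050 ± 0.016, adjusted p = 0.0292), the latter lost without P0 replicate 1 (0.0518) or P21 replicate 1 (0.0540) or 2 (0.0522). Another 2 members of the Rnd subfamily fell, *Rnd2* (-0.073 ± 0.019, adjusted p = 0.00765) and *Rnd3* (-0.091 ± 0.031, adjusted p = 0.0378), and *Rnd3* lost the call without P0 replicate 2 (0.115), P4 replicate 3 (0.0640), P14 replicate 1 (0.0567) or 2 (0.0557) or P21 replicate 1 (0.105) or 3 (0.0793), and by limma-voom (slope -0.052, adjusted p = 0.329). On the log2(day + 1) scale neither *Rnd2* (0.154) nor *Rnd3* (0.184) was called. The last effector that fell was *Farp1*, an exchange factor for small GTPases (-0.091 ± 0.029, adjusted p = 0.0231), lost without the P0 time point (0.496), P0 replicate 2 (0.106) or P21 replicate 1 (0.0618) or 3 (0.0596).

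**Figure D5:**
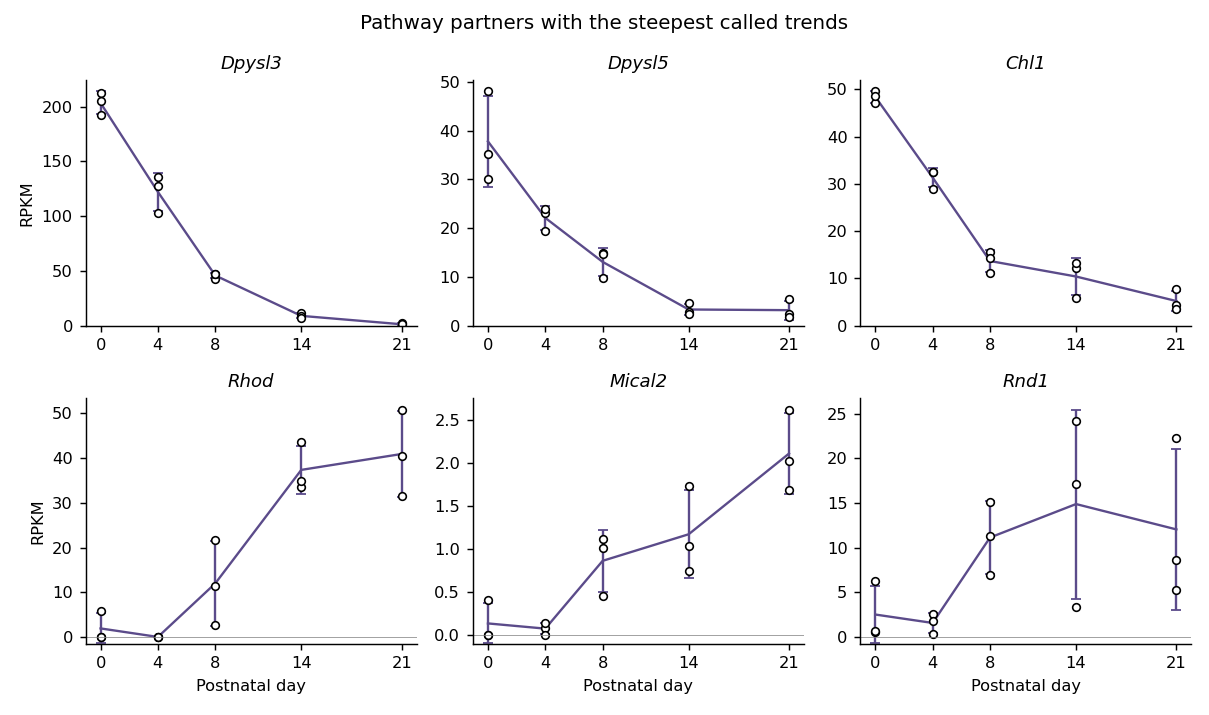
RPKM against postnatal day for the 3 pathway partners with the steepest called fall (upper row) and the 3 with the steepest called rise (lower row), with points for single samples and a line with bars for the mean ± SD of 3 samples. *Dpysl3* goes from a mean of 204 RPKM at P0 to 1.26 RPKM at P21, and *Rhod* from 1.94 to 40.9 RPKM.

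Markers of other cells moved over the same ages. The 8 markers of Bergmann glia and astrocytes summed to 4765 ± 815 CPM at P0, 9202 ± 870 at P8 and 3863 ± 813 at P21. From P0 to P8, 5 of the 8 rose, against 5.61% of all genes tested. From P8 to P21, 4 (*Aqp4*, *Gfap*, *Fabp7* and *Aldh1l1*) fell, against 4.61%, and 0 rose. That is the interval in which *Sema6a*, *Sema5b* and *Plxna2* fell. By the trend test 3 of the 8 rose and 2 fell, against 12.1% and 14.1%. By the trend test 5 of 5 oligodendrocyte markers rose, and so did 6 of 6 PC markers, as did *Sema7a* and *Sema4g*, against 12.1% of all genes tested. The oligodendrocyte sum went from 22.4 ± 11.8 CPM at P0 to 569 ± 241 CPM at P21. *Mag* and *Mobp* had no count at P0, *Mag* none at P4 and *Mog* none at P8. The 4 granule neuron markers summed to 455 ± 120 CPM at P0, 828 ± 207 at P8 and 409 ± 105 at P21. From P8 to P21 *Neurod1* and *Zic1* fell, *Gabra6* rose and *Cbln1* was not called. From P8 to P21 the sum of the 3 markers of oligodendrocyte precursors went from 57.6 ± 6.99 to 8.47 ± 7.01 CPM, that of the 3 vascular markers from 55.5 ± 24.4 to 23.7 ± 10.3 CPM and that of the 4 microglial markers from 20.4 ± 3.02 to 3.95 ± 2.31 CPM. The sum of the 4 interneuron markers lay between 33.9 and 77.8 CPM at the 5 ages. No count of *Cx3cr1* (microglia) or *Slc6a5* (interneurons) was found at P4. The part of these cells in the levels of the ligands and receptors was not tested.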

How the data were processed

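The authors trimmed reads with cutadapt 1.2.1, aligned them with GSNAP to GRCm38/mm10 and counted uniquely mapped reads per Ensembl gene with HTSeq 0.5.3p9, as the submitters' processing notes and the study's methods state. The deposited counts are whole numbers without normalization, 1 library per sample. The release of the annotation used for counting is not given in the sources used here, and the kit did not mark strand. Time points and replicates come from the sample labels. HTSeq's tallies of reads given to no gene, ambiguous reads included, were 18.2% to 31.0% of gene counts plus tallies. Ambiguous reads alone were 1.16% to 1.57%. These tallies stayed out of library sizes and tests.

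Everything else was computed from those counts. The 15 samples were fitted together with edgeR 4.0.16 (quasi-likelihood F test, R 4.3.3), with TMM normalization, filterByExpr by time point (14293 genes) and Benjamini-Hochberg adjustment at 0.05, and the fits were tested on simulated data. The day entered as a number for the trend and the time point as a factor for the other tests. Standard errors of slopes and differences came from the estimate and its F statistic. RPKM used GENCODE M21 exon lengths and total counts on genes, and summed marker CPM used TMM effective library sizes. Alternatives used DESeq2 1.42.0 and limma 3.58.1, and sums and figures Python 3.11.15 with pandas 2.3.3, numpy 2.4.6 and matplotlib 3.10.9. The genes, partner list and markers were chosen with earlier results of these data known. Values are printed in all samples for genes called by the trend test or the test of any pattern, for *Sema6d*, called from P0 to P8, for the 3 most abundant ligands and receptors and for the 3 partners with the steepest called slopes each way, and for other genes as ranges or means. A count of 0 lies below 3 counts of a library, which covers counting error only. Replicates of 1 time point differed beyond sampling noise (chi-square per gene 18.4 to 56.5), so none was counted as a copy. The biological coefficient of variation was 0.705.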

Additional observations from a re-analysis of the deposited data

How the results depend on the processing

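Counts of called genes stayed within 1.5 times the values given under DESeq2 size factors in edgeR, no filter on low counts, limma-voom, DESeq2, the replicate block, a log2(day + 1) scale and no P0 time point, with these exceptions. On the log2(day + 1) scale 1 ligand and 2 receptors fell. By limma-voom 5 ligands and 1 receptor rose with day. By DESeq2 2 genes fell from P0 to P8. With the replicate block 1 gene rose from P0 to P8 and 1 from P8 to P21. Leaving out each of the 15 samples in turn gave 2 to 4 ligands that fell and 2 to 3 that rose with day, 3 to 5 receptors that fell and 0 that rose, 1 to 2 genes that fell and 1 to 2 that rose from P0 to P8, and 1 to 4 that fell (1 without P21 replicate 1) and 0 to 2 that rose (0 without P8 replicate 3) from P8 to P21. The cause of these shifts was not tested. Summed ligand and receptor levels with TMM effective library sizes moved by less than 1 SD between replicates. The ligand sum was then 72.9 ± 22.3 RPKM at P0 and 89.1 ± 13.8 at P21, so that the order of these ages turned.

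Signs turned only where the value was called neither before nor after, among the settings run. The slope of *Sema4b* was 0.015 by limma-voom, 0.0055 with the replicate block and 0.10 on the log2(day + 1) scale, and -0.021 to 0.010 with 1 sample left out. That of *Sema3b* was -0.010 to 0.093 with 1 sample left out, and without the P0 time point that of *Nrp2* was 0.0054 and that of *Plxnb3* -0.015. From P0 to P8 the difference of *Sema5b* was -0.050 with DESeq2 size factors, -0.015 without the filter, -0.050 by DESeq2 and -0.36 to 0.19 with 1 sample left out, and that of *Nrp1* was 0.95 by limma-voom and -1.08 to 0.80. With 1 sample left out the same difference was -0.39 to 0.070 for *Sema4f*, -0.16 to 0.46 for *Sema4g* and -0.39 to 0.25 for *Sema6a*.

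Samples of the same replicate number did not deviate together (correlation of deviations from the time point means -0.032 to 0.047, mean -0.0033, and 0.0017 for samples of different numbers), and 3 of 15 samples correlated best with their own number. With 3 samples per time point, such correlations cannot exclude a batch shared by samples of 1 number. The labels state no pairing, and the numbers were taken as names of samples. With the number as a replicate block, 6 of the named genes' calls were lost (slopes of *Nrp1*, adjusted p = 0.0775, and *Rnd1*, 0.0648, *Sema6d* from P0 to P8, 0.0607, *Sema3e* from P8 to P21, 0.0679, and any pattern for *Sema3e*, 0.0601, and *Plxna2*, 0.0517) and 1 was gained (slope of *Sema3d*, 0.0235).

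With 3 samples per time point, the low counts of *Sema3b*, *Nrp2* and *Plxnb3* gave no call by edgeR with all samples and the filter on low counts, and *Sema3c* and *Sema3g* could not be tested. P0 material was cut as clusters, and the called slopes of *Sema7a*, *Plxna3*, *Rnd1*, *Ranbp9* and *Farp1* were lost without P0. Promoters of 5 genes were not in the table used here.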

Other observations

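Within each sample the balance between *Sema7a* and *Sema6a*, a pair chosen after their values were seen, shifted with age. The ratio of their RPKM was 0.0814, 0.131 and 0.208 in the P0 samples, 0.347, 0.760 and 0.444 at P4 and 0.856, 1.28 and 0.507 at P8. It was 1.40, 0.859 and 1.66 at P14 and 23.7, 5.07 and 2.76 at P21. All 3 P21 ratios lay above all 12 others, and all 3 P0 ratios below all 12 later ones. Both genes were chosen with their slopes known, so the ratio is a description with no test.

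Within the receptor sum, *Plxna1* made up 29.9% ± 1.84 (mean ± SD, n = 3) at P0 and 33.1% ± 16.4 at P4, then 11.3% ± 3.39 at P8, 15.1% ± 2.56 at P14 and, last, 12.5% ± 5.87 at P21. The actin-severing protein *Cfl1*, at a mean of 602 RPKM over the 15 samples, and *Dpysl2*, at 464 RPKM, were the most abundant of the 46 partners. *Met* and *Timd2* had no count in any sample, and *Cd72* was left out by the filter on low counts.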
